A study of Homo sapiens with 4 samples.

Results

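The heat shock proteins and cytosolic chaperones were followed by their mRNA in hFOB1.19 osteoblasts, a human fetal osteoblast line. The members were chosen by symbol from a fixed list, and the mRNA table held all 45 of them among 19610 gene symbols. The series has 4 libraries of total RNA: the control on differentiation day 0, and cells undergoing mineralization on days 3, 6 and 9, with 1 library per day. The study's methods grow the cells at a lower temperature up to day 0 and at a higher one afterwards. As background, the line is known to carry a temperature-sensitive viral large T antigen, which is active in the cooler cultures. Day 0 therefore differs from every later day in temperature, growth and differentiation at once, and these cannot be told apart. Days 3, 6 and 9 share the higher temperature. All groups are the same immortalized line, and the labels name no separate cultures.

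Chaperones hold newly made or damaged proteins in a form that can still fold. HSP70 proteins bind short exposed stretches with the help of HSP40 (DNAJ) partners and of nucleotide exchange factors such as HSP110 and BAG proteins. HSP90 finishes kinases and steroid receptors, small heat shock proteins keep unfolded chains from clumping without using ATP, and HSP60 with HSP10 folds proteins inside mitochondria. On a sudden rise in temperature, heat shock factor 1 (HSF1) binds heat shock elements in DNA and switches many of these genes on. Such induction is known to be transient.

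Levels are given in FPKM, fragments scaled to transcript length and to the size of the library, so that genes of different length can be compared. Where 4 values follow each other, they belong to days 0, 3, 6 and 9 in this order. FPKM were summed over the transcripts of a symbol. With no replicate, no test between days was possible and no error can be attached to a value. The limit for calling a member 2-fold higher or lower was a log2 ratio of its FPKM + 1 beyond 1 or -1. Genes below 1 FPKM in all libraries were left out, and 43 of the 45 members remained. DNAJA4, an HSP40, stayed between 0.180 and 0.368 FPKM. HSPB3, a small heat shock protein of muscle, had 0.137 FPKM in the control and the value 0 in the later libraries. The summed FPKM of all mRNAs was 617857 on day 0 and between 538072 and 569922 later, so levels were also compared after rescaling. The study reports sequencing reads for each day, which were of similar number. The mapped fragments behind the FPKM are not given.

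The cells were checked against markers. Of the osteoblast genes, COL1A1 (777 to 1974 FPKM) and SPARC (1113 to 1469 FPKM) were high in every library, and RUNX2, the lineage transcription factor, had 7.37 to 26.2 FPKM. ALPL had 0.294 FPKM on day 0 and 4.18 to 4.35 later, whereas SP7, BGLAP and IBSP stayed under 1 FPKM in every library. Several small heat shock proteins are known as muscle genes. Of 8 muscle markers, 7 were under 1 FPKM in every library, and TNNT1 carried nearly all of the summed level of the list, which was 21.3 FPKM on day 0 and 42.1 to 45.0 later. Of 6 blood, endothelial and epithelial markers, 5 were under 1 FPKM in every library, and CD68, a lysosomal protein, had 16.2 FPKM on day 0, 37.5, 65.1 and 90.6 FPKM later. The part of these genes in the chaperone values was not tested.

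To show what these genes share in sequence, the heat shock element was looked for in the promoters that RefSeq gives on GRCh38.p14, from 250 bases before to 50 bases after each start. A 3-unit element was GAANNTTC followed by any 2 bases and GAA, or TTCNNGAA followed by any 2 bases and TTC. Each is the reverse complement of the other, so that both strands were read. A promoter was found for 39 of the 45 members, and HSPA14, HSPB2, HSPB11, CRYAB, FKBP4 and HSF1 had none in the table. The element was present in 9 of the 39 (23.1%), against 166 of 27305 symbols with a promoter (0.608%) and 51 of the 9839 that also reached 1 FPKM (0.518%). The members belong to a family known for this element, so the share describes the list. The matches are shown in 30-base windows, 5′ to 3′ on the strand of the gene, because they carry the site at which HSF1 is known to bind. Capitals mark the match, and where matches overlapped the whole run is in capitals.
HSPA6, chr1:161524457-161524486, plus strand: gcggaaaggTTCGCGAAAGTTCgcggcggc
HSPA8, chr11:123062171-123062200, minus strand: gcgggccccTTCTGGAAGGTTCtaagatag
HSPA8, chr11:123062346-123062375, minus strand: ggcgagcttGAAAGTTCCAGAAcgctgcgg
HSP90AA1, chr14:102087112-102087141, minus strand: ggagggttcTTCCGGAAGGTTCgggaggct
HSP90AB1, chr6:44247769-44247798, plus strand: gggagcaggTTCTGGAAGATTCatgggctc
HSP90AB1, chr6:44247822-44247851, plus strand: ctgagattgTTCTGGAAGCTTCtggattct
DNAJA1, chr9:33025267-33025296, plus strand: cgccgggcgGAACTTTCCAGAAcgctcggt
DNAJB6, chr7:157336864-157336893, plus strand: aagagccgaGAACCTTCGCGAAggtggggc
HSPD1, chr2:197500061-197500090, minus strand: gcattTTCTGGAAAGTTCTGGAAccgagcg
CHORDC1, chr11:90223084-90223113, minus strand: accgGAAAATTCGCGAAGGTTCCTGAAacg
SERPINH1, chr11:75562168-75562197, plus strand: tttccaactTTCCAGAAGTTTCtcgggacg

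The longest run was that of CHORDC1, where 3 overlapping matches spanned 23 bases and began 60 bases before the start. HSPD1 had 2 overlapping matches over 18 bases. HSPA8 and HSP90AB1 each had 2 separate elements. The match of DNAJA1 lay just inside the transcribed part, from base 4. A shorter 2-unit element, GAANNTTC or TTCNNGAA, of which every 3-unit match holds 2 overlapping ones, was found in 23 of the 39 members (59.0%) and in 16.2% of all promoters. HSPA1A and HSPA1B, the main stress-induced HSP70 genes, held a single 2-unit match each, and their windows show how alike the copies are.
HSPA1A, chr6:31815426-31815455, plus strand: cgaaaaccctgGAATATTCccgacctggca
HSPA1B, chr6:31827622-31827651, plus strand: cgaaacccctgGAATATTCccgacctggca

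On day 3, 4 of the 43 members were 2-fold higher than on day 0 (HSPA4L, CRYAB, DNAJB4 and HSPA6), where 8.13% of 12859 genes were higher. On the same day 3 members were 2-fold lower (BAG1, HSPA8 and TRAP1), where 5.3% of all genes were lower. In either direction this was 16.3% of the members against 13.4% of all genes, a share near the background. The same 4 members were 2-fold higher on day 6, with 9.01% of all genes, and on day 9, with 9.6%. BAG1 alone was 2-fold lower on day 6, with 6.42% of all genes, and no member was on day 9, with 6.52%. The 3 comparisons share the day 0 library. The other 36 members (83.7%) stayed within 2-fold of day 0 on all 3 later days, as did 78.9% of all genes. The median log2 ratio to day 0 over the members was -0.28, 0.03 and 0.06 for days 3, 6 and 9, and that over all genes was -0.08, -0.08 and -0.09.

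By family, the summed FPKM of the 8 members listed as small heat shock proteins was higher on the later days, with 426, 600, 525 and 551. The difference was set mainly by HSPB1 and CRYAB, and the sum includes HSPB11, a ciliary transport protein. Of the 7 that reached 1 FPKM, 5 were above day 0 on each later day, against 44.9%, 45.1% and 44.8% of all genes. The 5 mitochondrial members summed to 457, 311, 383 and 417 FPKM, and the 8 co-chaperones to 339, 240, 264 and 287. Of these co-chaperones 6 were below day 0 on day 3, as were 55.1% of all genes. The 11 HSP70 and HSP110 genes summed to 1379, 827, 993 and 1007 FPKM, a difference set mainly by HSPA8, since their median log2 ratio was -0.34, 0.10 and 0.27. The cytosolic HSP90 genes had 939, 734, 903 and 891 FPKM together, and the 8 HSP40 genes 398, 369, 387 and 403. All members together took 0.675%, 0.637%, 0.688% and 0.671% of the summed FPKM of all mRNAs.

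**Figure D1:**
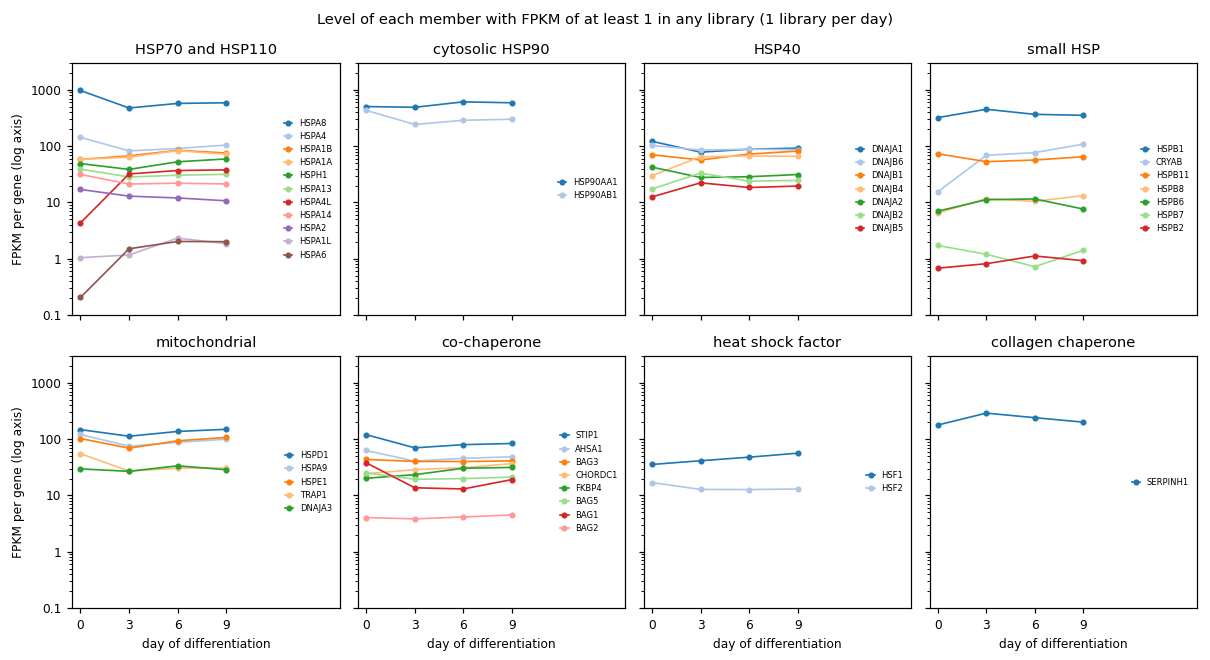
FPKM per gene on a log axis against the day of differentiation for the 43 members with at least 1 FPKM in any library, in 8 panels by family, with 1 point per library. HSPA8, HSP90AA1, HSP90AB1, HSPB1 and SERPINH1 lie highest, and HSPA4L, HSPA6 and CRYAB climb most between days 0 and 3.

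Of the HSP70 family, HSPA8 encodes the constitutive cytosolic protein and had the highest level of all members on day 0, while HSP90AA1 was level with it or above it on the later days. It had 977, 477, 576 and 590 FPKM. Its day 0 library stood above the other libraries, and it ranked 92 among all genes there against 144 on day 3. Its log2 ratios to day 0 were -1.03, -0.76 and -0.73. The day 3 value is close to the limit and was -0.83 or -0.90 after rescaling, inside it. Its most abundant transcript (ENST00000227378), with 47.3% to 50.2% of the gene in the libraries, had 484, 226, 289 and 295 FPKM. HSPA8 took 23.4% of the summed FPKM of the 45 members on day 0 and 13.9% to 15.4% later.

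HSPA1A and HSPA1B are near-identical copies, between which reads could be split. HSPA1A had 58.2, 63.8, 83.3 and 71.8 FPKM. HSPA1B had 58.3, 67.2, 84.4 and 75.7 FPKM. Summed, these genes had 116, 131, 168 and 147 FPKM, with the lowest level on day 0 and the highest on day 6, and their log2 ratios to day 0 lay between 0.13 and 0.53. Against HSPA8 of the same library, a ratio that no scaling of the library changes, the sum was 0.119 in the control and 0.275, 0.292 and 0.25 later. HSPA1L, a testis-enriched neighbour of this pair, stayed between 1.04 and 2.32 FPKM.

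HSPA6 is an HSP70 gene known to be nearly silent without stress. It had 0.205, 1.5, 2.03 and 2.01 FPKM. All later libraries were above day 0, but the gene remained at a low level, with ranks from 11466 to 13830 among all genes over the libraries. Its log2 ratio was 1.05, 1.33 and 1.32, and with 0.1 in place of 1 added to the FPKM it was 2.39, 2.80 and 2.79. Of the 9 members with a 3-unit element, HSPA6 passed the limit upwards and HSPA8 passed it downwards on day 3. HSPA4L and DNAJB4 passed it upwards without such an element, and no promoter was found for CRYAB. The part of the element in these values was not tested.

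The HSP110 proteins release ADP from HSP70. HSPA4L, also called APG-1, had 4.34, 32.1, 36.9 and 37.9 FPKM. On the scale of FPKM + 1 this was the largest difference from day 0 among the members on each day, with log2 ratios of 2.63, 2.83 and 2.87. All 4 of its listed transcripts were higher on every later day than on day 0, and the most abundant (ENST00000505726) had 2.01, 13.7, 14.0 and 13.4 FPKM. Its paralogue HSPA4 went the other way without passing the limit, with 144, 82.5, 90.9 and 105 FPKM. The HSPA4 transcript with the highest mean level (ENST00000617074) was 2-fold lower on day 3, from 79.8 to 39.4 FPKM. ENST00000304858 went from 49.7 to 40.4 FPKM. The ratio of HSPA4L to HSPA4 was 0.0302 on day 0 and 0.389, 0.406 and 0.362 later. HSPH1, the stress-induced HSP110, had 49.1, 38.7, 52.8 and 59.3 FPKM.

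The other HSP70 genes were below day 0 on all later days, within the limit. HSPA2 had 17.0 FPKM on day 0 and 10.7 on day 9. HSPA13, a microsomal protein, had 39.2 FPKM on day 0 and 28.3 to 31.6 later, and HSPA14, which sits on ribosomes, had 31.4 and then 21.2 to 22.0 FPKM. The HSPA14 transcript with the highest mean level (ENST00000378372) was 2-fold lower on day 3, from 19.9 to 8.58 FPKM. ENST00000437161 went from 10.8 to 11.5 FPKM and was the more abundant on every later day.

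HSP90AA1, the inducible cytosolic HSP90, had 506, 491, 614 and 591 FPKM. Its constitutive paralogue HSP90AB1 had 433, 243, 289 and 301 FPKM. The first stayed within 0.28 of day 0 on the log2 scale, while the second was lower by 0.83, 0.58 and 0.52. On day 0 the levels were close, at a ratio of 1.17, and on days 3, 6 and 9 HSP90AA1 stood at 2.02, 2.12 and 1.96 times HSP90AB1. Both genes hold the 3-unit element shown above.

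**Figure D2:**
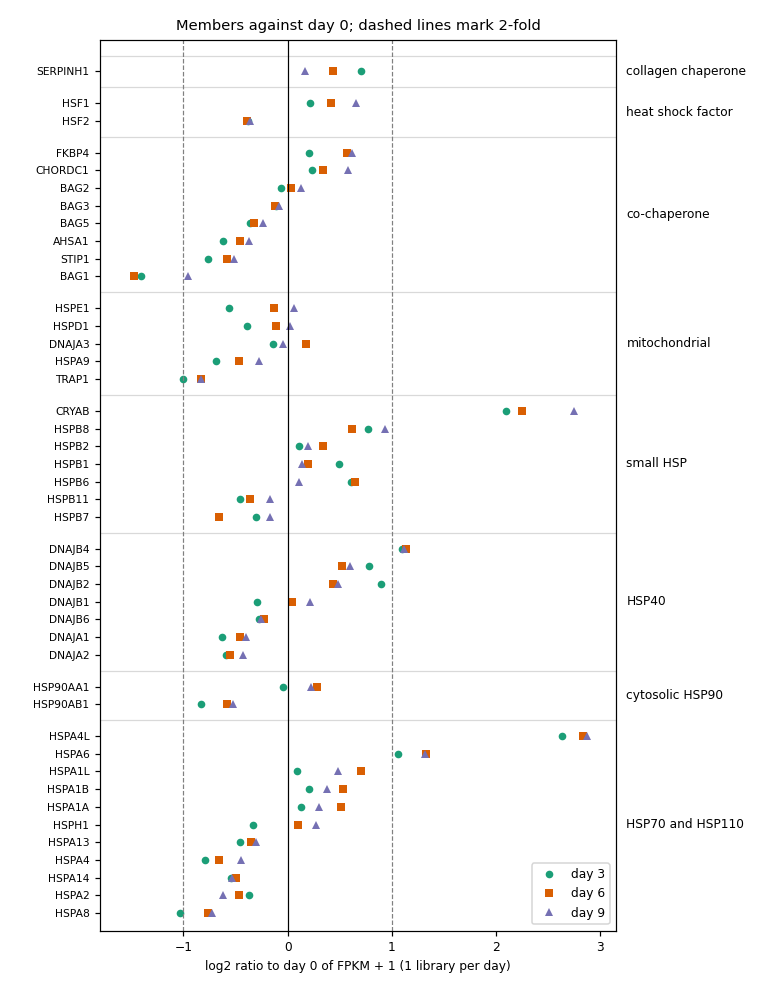
Log2 ratio to day 0 of FPKM + 1 for the 43 members, grouped by family, with a circle for day 3, a square for day 6 and a triangle for day 9, and dashed lines at the 2-fold limit. CRYAB, DNAJB4, HSPA4L and HSPA6 lie beyond the right limit on all days, while BAG1, HSPA8 and TRAP1 reach the left one.

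The HSP40 proteins deliver substrates to HSP70 through their J domain. DNAJB4 was the member of this family past the limit, with 29.9, 65.0, 66.9 and 66.2 FPKM (log2 ratios 1.09, 1.14 and 1.12). Between the later libraries it hardly differed, and ENST00000370763 carried 93.3% to 95.3% of it. DNAJB1, the stress-induced HSP40, had 70.2, 56.9, 72.4 and 81.8 FPKM, with its lowest level on day 3. The ratio of DNAJB4 to DNAJB1 was 0.426 on day 0 and 1.14, 0.924 and 0.809 later.

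DNAJA1, the most abundant HSP40 on day 0, had 122, 78.4, 88.4 and 92.3 FPKM, and DNAJA2 had 42.4, 27.8, 28.7 and 31.3 FPKM. DNAJB2, known from neurons, had 17.4, 33.2, 23.9 and 24.7 FPKM, and its log2 ratio of 0.90 on day 3 was just inside the limit. It was 2-fold higher on that day after either rescaling and for its most abundant transcript. DNAJB5 had 12.5 FPKM on day 0 and 18.4 to 22.3 later. DNAJB6, which holds back amyloid formation, stayed within 0.28 of day 0 on the log2 scale, with 103 FPKM at first and 85.2 to 88.2 later.

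Among the small heat shock proteins, CRYAB (alpha-B-crystallin) stood apart. It had 15.4, 68.8, 76.8 and 109 FPKM. The level was higher in each library than in the one before, and the log2 ratios to day 0 were 2.09, 2.25 and 2.74. Its rank among all genes was 6102 on day 0 and 767 on day 9. The file lists 16 transcripts, of which ENST00000527950 took 61.4% of the gene on day 0 and 31.2% to 39.6% later. On this transcript alone the log2 ratios were 1.41, 1.26 and 2.08, all past the limit.

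HSPB1 (HSP27), which also binds actin, was the most abundant small heat shock protein in every library. It had 322, 453, 368 and 354 FPKM, within the limit. The ratio of CRYAB to HSPB1 was 0.0479 on day 0 and 0.152, 0.209 and 0.307 later. HSPB8, which works with BAG3 in selective autophagy, had 6.48, 11.7, 10.4 and 13.3 FPKM, and its log2 ratio on day 9 was 0.93, just inside the limit. It was 2-fold higher on that day after either rescaling and with 0.1 added. HSPB6, known from smooth and cardiac muscle, had 6.99, 11.2, 11.5 and 7.62 FPKM. HSPB2 and HSPB7, known from heart and skeletal muscle, stayed under 2 FPKM, with a maximum of 1.12 and 1.72. HSPB11, a ciliary transport protein despite its symbol, had 73.2, 53.1, 56.8 and 65.0 FPKM.

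All 5 mitochondrial members were below day 0 on day 3 (55.1% of all genes), with log2 ratios from -1.0 to -0.14. HSPD1 (HSP60) had 148, 113, 137 and 150 FPKM. HSPE1 (HSP10), whose gene shares a promoter region with HSPD1, had 103, 69.2, 93.6 and 107 FPKM. Both were at their lowest on day 3 and near the day 0 level on day 9, and their ratio stayed between 1.40 and 1.63. A readthrough gene, HSPE1-MOB4, overlaps HSPE1 and had 2.53 to 4.95 FPKM. HSPA9 (mortalin) had 121, 75, 87.7 and 99.9 FPKM.

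TRAP1, the mitochondrial HSP90, stayed below its day 0 level. It had 55.3, 27.1, 30.6 and 30.7 FPKM, so all later libraries lay well below the first. The log2 ratio was -1.0 on day 3, at the limit, and -0.83 on days 6 and 9. On day 3 it was -0.82 or -0.88 after rescaling and -0.78 for the most abundant transcript, in each case inside the limit. DNAJA3, the HSP40 of mitochondria, stayed between 26.8 and 33.6 FPKM.

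BAG proteins release substrates from HSP70. BAG1, which links HSP70 to the proteasome, was the member furthest below day 0 on each later day. It had 38.0, 13.7, 13.1 and 19.1 FPKM, with log2 ratios of -1.41, -1.47 and -0.95. Its 2 main transcripts moved alike, from 17.7 to 6.15, 6.14 and 9.91 FPKM for ENST00000635077 and from 16.4 to 6.54, 5.79 and 7.22 FPKM for ENST00000379704. BAG3, the stress-induced partner of HSPB8, had 43.6, 40.3, 40.1 and 41.2 FPKM. The ratio of BAG3 to BAG1 was 1.15 on day 0 and 2.94, 3.07 and 2.15 later. BAG2 stayed between 3.84 and 4.50 FPKM, and BAG5 between 19.4 and 25.2.

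**Figure D3:**
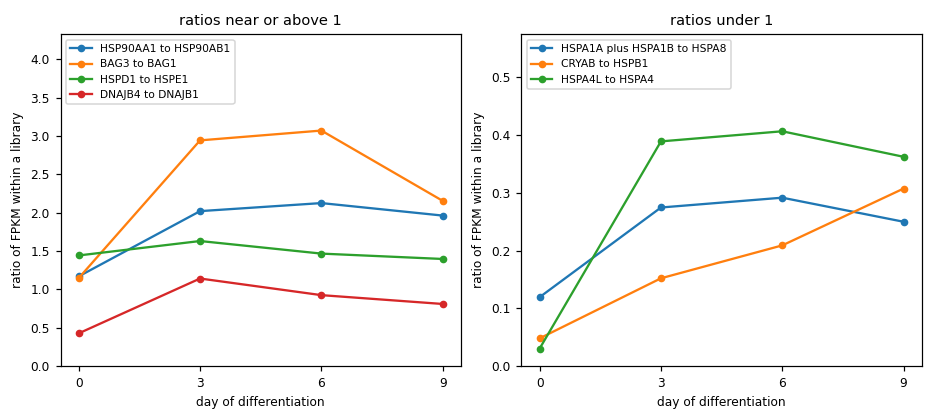
Ratio of FPKM within each library for pairs of related members, against the day of differentiation, with 1 point per library. From day 0 to day 3 the ratio of HSP90AA1 to HSP90AB1 goes from 1.17 to 2.02 and that of HSPA4L to HSPA4 from 0.0302 to 0.389, whereas HSPD1 to HSPE1 stays between 1.40 and 1.63.

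The HSP90 co-chaperones were within the limit and differed in direction. STIP1 (HOP), which hands substrates from HSP70 to HSP90, had 120 FPKM on day 0 and 70.2, 79.9 and 83.9 later. AHSA1, which speeds up the ATPase of HSP90, had 63.1 and then 40.8, 45.7 and 48.6 FPKM. FKBP4, a partner in steroid receptor complexes, had 20.2, 23.4, 30.4 and 31.5 FPKM, and CHORDC1, a zinc-binding partner, had 24.3, 28.8, 31.1 and 36.8. The first pair was below day 0 in every later library and the second pair above it.

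HSF1 had 35.5, 41.4, 47.9 and 56.4 FPKM. Each library was above the one before, up to a log2 ratio of 0.65 on day 9, within the limit. The activity of HSF1 is known to be set by its protein state and not by its mRNA. HSF2 had 17.0 FPKM on day 0 and 12.7 to 13 later.

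SERPINH1 (HSP47) is a chaperone of the endoplasmic reticulum that binds procollagen. It had 178, 291, 241 and 201 FPKM, highest on day 3 and within the limit throughout (log2 ratios 0.70, 0.43 and 0.17). Its clients COL1A1 and COL1A2 summed to 902 FPKM on day 0 and to 2830, 2341 and 1707 later, also with their peak on day 3. Per unit of these collagen mRNAs, SERPINH1 was 0.198 on day 0 and 0.103, 0.103 and 0.118 later.

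Between days 3 and 6, at the same temperature, no member was 2-fold higher or lower, where 0.607% of all genes were higher and 0.443% lower (1.05% together). None was between days 6 and 9, where 0.381% of all genes were higher and 0.163% lower (0.544% together). Within that limit the members leaned upwards from day 3, as did some of the lists of other chaperones given further below. On day 6, 33 of 43 (76.7%) were above their day 3 value, against 49.6% of all genes, and the median log2 ratio was 0.16 against 0.00 over all genes. The members furthest above day 3 were HSPA1L (0.62), HSPH1 (0.44), HSPE1 (0.43), HSPA1A (0.38), FKBP4 (0.36) and DNAJB1 (0.34), and the furthest below were DNAJB2 (-0.46) and HSPB7 (-0.35). The share above day 3 was 76.7% under both rescalings. These treat days 3 and 6 nearly alike (median ratios 0.915 and 0.912, factors to the same sum 1.15 and 1.13), so the share could hardly change. From day 6 to day 9, 29 of 43 (67.4%) were higher, against 52.8% of all genes. With FPKM rescaled to the same sum in each library, this was 46.5% against 40.2%.

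Day 3 was the lowest of the 4 libraries for 21 of the 43 members (48.8%), against 22.5% of all genes. After rescaling it was the lowest for 16 (37.2%) or 19 (44.2%), against 14.7% and 20.1% of all genes. The 21 include all 5 mitochondrial members, both cytosolic HSP90 genes, 5 of the 11 HSP70 and HSP110 genes, 4 of the HSP40 genes, STIP1, AHSA1, BAG2, BAG5 and HSPB11. Genes of a pathway do not vary independently, and these shares describe 4 libraries. The low values of day 3 and the rise from day 3 to day 6 rest on the same day 3 library.

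**Figure D4:**
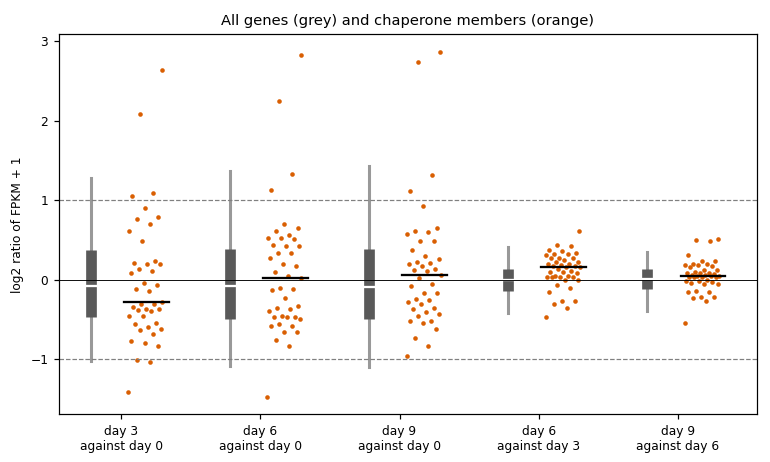
Log2 ratio of FPKM + 1 in 5 comparisons of days, with the 43 members as orange points, their median as a black line, and all 12859 genes in grey (thin bar from the 5th to the 95th percentile, thick bar for the quartiles, white mark for the median). The member median is -0.28 on day 3 against day 0 and 0.16 on day 6 against day 3, and no member lies beyond the dashed 2-fold lines in the comparisons of day 6 with day 3 and day 9 with day 6.

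The 9 members with a 3-unit element were set beside the 28 that had a promoter without it and reached 1 FPKM. On day 3 their median log2 ratio to day 0 was -0.28 and -0.30, and the ranges overlapped (-1.03 to 1.05, and -1.41 to 2.63). From day 3 to day 6 the medians were 0.25 and 0.10, with 8 of 9 and 19 of 28 above day 3. Over all genes, the 51 with the element had a median of 0.07 for that step and the 9788 without it 0.00. A match in the window is a description and not evidence of binding, and the lack of an exact match does not show that a site is absent. The group without the 3-unit element holds HSPA1A and HSPA1B, which carry the shorter element. It also holds HSPE1, which shares a promoter region with HSPD1. The groups therefore do not separate genes with and without an HSF1 site, and the part of the element in these medians was not tested.

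Other folding genes were taken from lists by function, and the share of all genes is given beside their counts. The TRiC chaperonin folds actin and tubulin, and all 8 of its subunits were below day 0 on all later days, as were 46.0% of all genes. Of these CCT2 (-1.13), CCT3 (-1.02) and CCT5 (-1.19) were 2-fold lower on day 3 (5.3% of all genes), and the median of the list was -0.76, -0.61 and -0.45 on days 3, 6 and 9. Prefoldin, which feeds TRiC, had no gene past the limit among 6, with medians of -0.32, -0.16 and -0.10.

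Among 15 further co-chaperones of HSP70 and HSP90, all were below day 0 on day 3 (55.1% of all genes), and HSPBP1 and DNAJC7 were 2-fold lower on each later day (5.3%, 6.42% and 6.52% of all genes). HSPBP1, an exchange factor of HSP70, had 31.8 FPKM on day 0 and 13.3, 11.3 and 14.9 later. DNAJC7, which binds both HSP70 and HSP90, had 75.1 FPKM on day 0 and 32.5, 34.7 and 33.6 later. Of 10 mitochondrial proteases and HSP70 partners, 9 were below day 0 on day 3 (55.1% of all genes), and HSCB, an iron-sulfur co-chaperone, was 2-fold lower on day 6 alone (-1.04, with 6.42% of all genes lower).

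In the endoplasmic reticulum, 2 of 11 chaperones were 2-fold higher on each later day (8.13%, 9.01% and 9.6% of all genes) and none was lower. DNAJB9 had 5.08 FPKM on day 0 and 12.3, 15.4 and 16.4 later, and the disulfide isomerase PDIA4 had 66.7 and then 146, 146 and 136 FPKM. HSPA5 (BiP), the HSP70 of this compartment, had 144, 138, 178 and 195 FPKM, and HSP90B1 had 363, 492, 581 and 572. HSP90B1 stood at 0.839 times HSP90AB1 on day 0 and at 1.90 to 2.02 times later. The list was mixed, with 6 of the 11 above day 0 on day 3 and 8 on days 6 and 9 (44.9%, 45.1% and 44.8% of all genes). HYOU1, CANX and DNAJB11 were below day 0 on all later days, within the limit. From day 3 to day 6, 9 of these 11 chaperones were higher, as were all 8 TRiC subunits and all 6 prefoldin genes (49.6% of all genes). So were 9 of the 15 further co-chaperones and 7 of the 10 mitochondrial proteases and HSP70 partners. The median log2 ratios of these 2 lists for that step were 0.005 and 0.04, close to the -0.002 of all genes.

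Of 11 collagen and procollagen-processing genes, 5, 7 and 6 were 2-fold higher on days 3, 6 and 9 (8.13%, 9.01% and 9.6% of all genes), and none was lower. By log2 ratio on day 9 the prolyl hydroxylase subunits P4HA1 (2.30) and P4HA2 (2.18), COL1A2 (2.15) and the lysyl hydroxylase PLOD2 (1.78) led this list. PPIB, P3H1 and CRTAP stayed within 0.30 of day 0. Of 12 HSF1 regulators and other stress genes, 4 were 2-fold higher on each of days 3, 6 and 9 (8.13%, 9.01% and 9.6% of all genes). They were not the same genes on each day, and none was lower (5.3%, 6.42% and 6.52% of all genes). Past the limit on all 3 days were CLU, a secreted chaperone, with 23.0 FPKM on day 0 and 124, 97.0 and 96.5 later, and ATF3 (log2 ratios 1.85, 1.64 and 1.79). HSF4 (1.23 and 1.18) and IER5 (1.34 and 1.09) passed it on days 3 and 6. The level of HSF4 was low, with 1.47, 4.78, 4.60 and 2.84 FPKM. SQSTM1 and HMOX1, known oxidative stress genes, passed it on day 9 alone, with 1.1 and 1.19.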

How the data were processed

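The 4 hFOB1.19 libraries (days 0, 3, 6 and 9, grouped by GEO's time label, 1 each) were made from total RNA depleted of rRNA and sequenced with a directional kit. Per the labels, RNase R was used for the mRNA libraries and not for circRNAs. That enzyme digests linear RNA, so its effect on mRNA values is not known. The authors deposited FPKM per transcript. Their methods name Bowtie and TopHat, the submitters' processing notes name Bowtie 0.12.2 and mm8, a mouse build, and the FPKM program is not given in the sources used here. Fold changes, p-values and q-values in the authors' 9 comparison tables were not used, nor were circRNA counts, which carry no gene names. No lncRNA symbol began with a member's symbol.

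FPKM were summed per symbol and log2 ratios taken after adding 1. Genes needed at least 1 FPKM in any library, and 2-fold was the limit in place of a test. The members and lists were chosen with earlier results of these data known. Named are all members past the limit on any day, the most abundant of each family, HSPA1A, HSPA1B, HSF1, HSF2 and SERPINH1, and at most 4 genes past the limit per list. Other members and list genes are given for context, chosen after their values were seen. The call rule was run on simulated data with changes far beyond the limit. That checks the code and says nothing about calls near the limit or at low FPKM. Python 3.11.15, numpy 2.4.6 and pandas 2.3.3 were used. Alternatives were the added value, the minimum, 2 rescalings (to the same summed FPKM, and by the median ratio to day 0 over 11584 genes at 1 FPKM or more in all libraries), the limit, and the most abundant transcript in place of the sum. A median was taken as moved from a difference of 0.1.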

Additional observations from a re-analysis of the deposited data

How the results depend on the processing

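No paired analysis was possible because each day has 1 library. Of 303 alternative values for 17 named members, 298 kept the sign of the reported value, and the others were those of HSP90AA1 on day 3 and HSPD1 on day 6, both near 0. Another added value or minimum cannot change a sign, so many of these agreements were fixed in advance. Only the 2 rescalings and the most abundant transcript could change one. HSPA4L, CRYAB, DNAJB4 and HSPA6 were 2-fold higher on all 3 later days wherever the 2-fold limit was kept, except that HSPA6 dropped out with a minimum of 5 FPKM, as it never reached that level. With 0.1 added, 2 members were lower on day 6, HSPB7 being the other, and HSPA1L (day 6) and HSPB8 (day 9) were also 2-fold higher. With either rescaling, 1 member (BAG1) was lower on day 3 instead of 3, and 5 instead of 4 were higher on day 3 (DNAJB2 added) and on day 9 (HSPB8 added). For the most abundant transcript, 5 were higher on day 3 (DNAJB2 added) and 4 lower (HSPA4 and HSPA14 added, TRAP1 lost). With a 1.5-fold limit 9, 7 and 8 members were higher and 10, 5 and 4 lower on days 3, 6 and 9, and 1 was higher on day 6 than on day 3. With a 4-fold limit 2 were higher on each day (HSPA4L and CRYAB) and 0 lower. The median log2 ratio of the members was -0.0788 on day 3, 0.19 on day 6 and 0.18 on day 9 with FPKM rescaled to the same sum, and -0.15, 0.14 and 0.20 with the median ratio. On day 6 it was -0.11 with a minimum of 5 FPKM and -0.11 with none, and on day 3 it was -0.0767 for the most abundant transcript. The rescalings put all later days higher by construction, and the rescaled counts of members lowest on day 3, above day 3 on day 6 and above day 6 on day 9 were chosen after the data were seen. The rescaling to the same sum brought the median of all genes from -0.08 to 0.10 on day 3, which moved the balance of all genes 2-fold higher and lower from 8.13% and 5.3% to 12.7% and 3.65%. The mapped fragments behind the FPKM are not given, so the precision of low values cannot be stated.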
